A study of Mus musculus with 10 samples.

Results

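The 10 genes described here encode transcription factors that set or keep the identity of airway epithelial cells. They are Trp63, Sox2, Nkx2-1, Foxa1, Foxa2, Elf3, Elf5, Ehf, Grhl2 and Klf5, taken as a named list, and all 10 were measured among 22180 genes, each by 1 probe set. They were followed in tracheal tissue of 5 FVB/NJ mice that had breathed chlorine gas at 235 ppm for 1 hr and were sampled 4 days later, against 5 FVB/NJ mice that received no treatment. All mice were males 9 weeks of age, each mouse gave 1 Affymetrix array from tissue pooled over several frozen sections, and the arrays' number limits the precision. Laser-capture microdissection was aimed at the mesenchyme below the epithelium, and the series concerns how fibrotic lesions develop there. Values are log2 intensities from robust multi-array averaging (RMA), so that a difference of 1 is a doubling.

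These factors act in layers. TP63 (gene Trp63) maintains the basal stem cells that lie on the basement membrane, and SOX2 is needed for those cells and for the conducting airway lineage as a whole. NKX2-1 specifies the lung and trachea against the esophagus and drives surfactant and secretoglobin genes. FOXA1 and FOXA2 are forkhead factors that open chromatin at epithelial genes, and FOXA2 is known in mice for restraining mucous cell differentiation. ELF3, ELF5 and EHF are ETS factors largely restricted to epithelia, GRHL2 keeps up the genes of epithelial junctions, and KLF5 is a zinc finger factor of proliferating and differentiating epithelium.

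The dissected tissue was labelled mesenchyme, yet it held epithelial transcripts in both groups. The epithelial adhesion gene Epcam averaged 8.12 in exposed and 8.40 in unexposed mice, and the secretory cell product Scgb1a1 averaged 10.8 in exposed and 12.9 in unexposed mice, while array medians lay between 5.10 and 5.18. Exposed mouse 3 stood apart from the other exposed mice. Its mean over 6 genes shared by epithelia (Epcam, Cdh1, Krt8, Krt18, Krt19 and Cldn7) was 8.27, with 8.93 to 9.26 in the other exposed mice and 8.68 to 9.14 in unexposed mice. Its fibroblast marker mean, over 8 genes, was 10.7, the highest of the 10 mice, with 10.1 to 10.5 in the other exposed mice and 9.85 to 10.2 in unexposed mice. In bulk tissue, fewer cells of a type and less RNA per cell cannot be told apart, which applies to every value below. The part of epithelial content in the changes of the factors was not tested beyond the values given beside them.

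Elf5 and Foxa2 fell in exposed mice, and none of the 10 factors rose. The calls were made with limma over all genes, at a Benjamini-Hochberg adjusted p under 0.05. In that fit 4.97% of the 22180 genes were called lower and 5.85% higher. The other 8 factors did not pass (adjusted p 0.0903 to 0.942), although all 10 mean log2 changes were below 0, as were 50.6% of those of all genes. The median change of the 10 was -0.81, beside -0.0035 over all genes, and without exposed mouse 3 these medians were -0.42 and -0.017. The groups did not overlap for 3 factors, Elf5, Foxa2 and Nkx2-1, each lower in every exposed mouse. Over all genes 5.06% showed such a separation downwards and 5.89% upwards. Without exposed mouse 3 the same 2 factors, Elf5 and Foxa2, passed and again none rose.

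**Figure D1:**
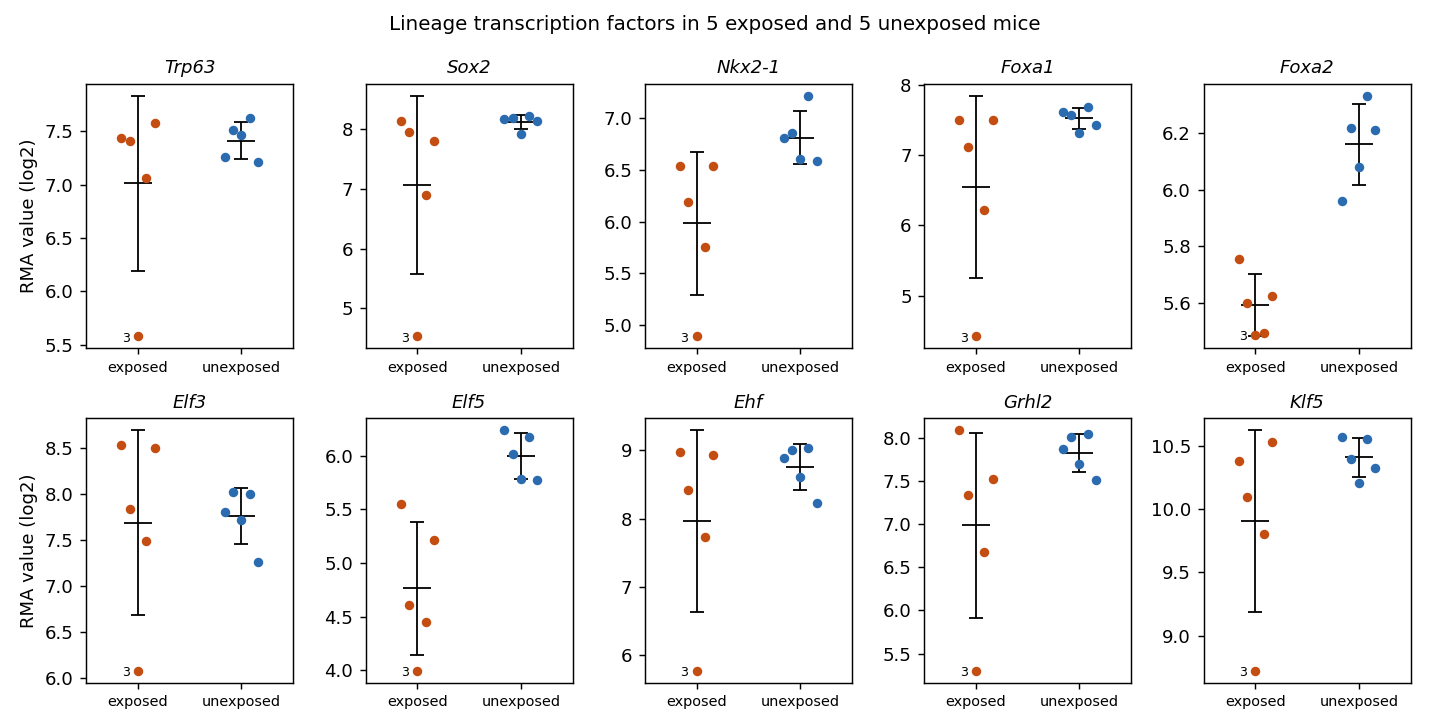
RMA values (log2, vertical axis, a separate scale for each gene) of the 10 factors in exposed (orange) and unexposed (blue) mice. Points are mice, the bar is the mean and the whiskers are 1 SD (n = 5 each); the point marked 3 is exposed mouse 3, lowest of the 10 mice for all 10 factors, and the groups separate for Elf5, Foxa2 and Nkx2-1.

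Elf5 encodes an ETS factor best known in mice from the mammary gland, the placenta and the tips of the embryonic lung. Its values were 5.55, 4.61, 3.99, 4.45 and 5.21 in exposed mice 1 to 5, against 6.24, 6.01, 5.78, 6.17 and 5.78 in unexposed mice 1 to 5. Every exposed mouse lay below every unexposed mouse, and exposed mice 1 and 5 came closest to them. The means were 4.76 ± 0.62 in exposed and 6.0 ± 0.22 in unexposed mice (SD, n = 5 each), a log2 change of -1.23 (SE 0.25, 95% interval -1.79 to -0.67, adjusted p = 0.0099), so that Elf5 was 2.35-fold higher in unexposed mice. The call held with each mouse left out in turn (adjusted p 0.0017 to 0.030), and without exposed mouse 3 the change was -1.04. The values of exposed mice 2, 3 and 4 lay below the array medians, and no detection limit is known for these arrays, so the size of the fall is less certain than its direction.

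Foxa2 had 5.75, 5.6, 5.49, 5.49 and 5.62 in exposed mice 1 to 5, against 5.96, 6.22, 6.08, 6.33 and 6.21 in unexposed mice 1 to 5. The exposed values lay close together, and all were below the lowest unexposed value. The means were 5.59 ± 0.11 in exposed and 6.16 ± 0.14 in unexposed mice (SD, n = 5 each), a log2 change of -0.57 (SE 0.098, 95% interval -0.79 to -0.36, adjusted p = 0.0034), or 1.49-fold higher in unexposed mice. Foxa2 was the single factor whose spread was smaller in exposed than in unexposed mice. It was also the one in which exposed mouse 3 hardly left its group, at 0.005 below exposed mouse 4. The exposed values, 5.49 to 5.75, lay not far above the array medians of 5.10 to 5.18, with no known detection limit. The part of this low level in their narrow spread was not tested. Leaving out single mice gave changes of -0.62 to -0.53 (adjusted p 0.0030 to 0.011). Against a 1.2-fold change in place of 0, limma gave Foxa2 an adjusted p of 0.094 and Elf5 one of 0.040.

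The promoter sequences of these 2 factors and of Foxa1, the paralog of Foxa2, are shown because Elf5 and Foxa2 are the members that fell while Foxa1 did not pass. They are the 250 bases before the outermost annotated start, written 5′ to 3′ on the gene's strand, from RefSeq (GRCm38.p6). Elf5 is on the plus strand (chr2:103411848-103412097), Foxa2 on the minus strand (chr2:148046970-148047219) and Foxa1 on the minus strand (chr12:57546112-57546361). Capitals mark matches to the motifs described next, a SOX core in Elf5 (207 bases before the start) and a forkhead core in Foxa1, with none in Foxa2.
Elf5: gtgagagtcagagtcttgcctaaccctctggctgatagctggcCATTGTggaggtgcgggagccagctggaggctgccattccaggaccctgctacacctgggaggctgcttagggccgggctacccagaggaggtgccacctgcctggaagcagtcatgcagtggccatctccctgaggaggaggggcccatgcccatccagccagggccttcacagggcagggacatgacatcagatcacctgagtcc
Foxa2: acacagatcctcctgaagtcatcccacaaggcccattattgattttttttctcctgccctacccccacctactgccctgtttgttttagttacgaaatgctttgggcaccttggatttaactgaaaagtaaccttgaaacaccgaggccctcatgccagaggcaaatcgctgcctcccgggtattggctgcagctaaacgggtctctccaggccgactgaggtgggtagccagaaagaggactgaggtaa
Foxa1: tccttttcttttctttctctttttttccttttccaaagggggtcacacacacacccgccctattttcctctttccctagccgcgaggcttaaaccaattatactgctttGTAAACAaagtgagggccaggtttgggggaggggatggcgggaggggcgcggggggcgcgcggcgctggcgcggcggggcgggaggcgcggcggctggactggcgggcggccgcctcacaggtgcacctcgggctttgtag

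Short core motifs of 6 families (SOX, NKX2, forkhead, ETS, grainyhead and KLF) were searched on both strands in such windows, and none for the p53 family of Trp63. Entries were found for 6 of the 10 factors, with 9 windows for Sox2, Nkx2-1, Foxa1, Foxa2, Elf3 and Elf5. Trp63, Ehf, Grhl2 and Klf5 were not used here. The SOX core ACAATG occurred once before the outer start of Elf5, and 8.91% of the 20611 windows of measured genes held it. The forkhead cores TGTTTAC and TGTTTGC occurred in 6.56% of windows, among them that of Foxa1, 141 bases before the start, and not in those of Foxa2. The KLF cores GGGCGTGG and GGGGTGG (20.2% of windows) matched at inner starts of Elf5 and Foxa2. The ETS core CCGGAAG (8.88%), the NKX2 core CACTTGA (2.47%) and the grainyhead core AACCGGTT (0.155%) matched in none of the 9 windows. Each member window with a match held 1 family of motif only, so no matches of different motifs overlapped. These matches describe letters and say nothing of binding.

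Nkx2-1 was lower in every exposed mouse without passing the test. It had 6.54, 6.19, 4.89, 5.75 and 6.53 in exposed mice 1 to 5, against 6.80, 6.85, 6.6, 7.21 and 6.58 in unexposed mice 1 to 5. Exposed mice 1 and 5 were just under the lowest unexposed mouse. The means were 5.98 ± 0.69 in exposed and 6.81 ± 0.25 in unexposed mice (SD, n = 5 each), with a log2 change of -0.83 (SE 0.28, 95% interval -1.45 to -0.21, adjusted p = 0.0903). Without exposed mouse 1 the change was -0.97 and passed (adjusted p = 0.049), and without exposed mouse 3 it was -0.56 (adjusted p = 0.085). NKX2-1 is also a factor of thyroid follicular cells, which lie beside the trachea. Of 5 thyroid markers measured, 0 were called, their mean lay between 4.67 and 5.03 across exposed mice and between 4.82 and 4.96 across unexposed mice, and thyroglobulin (Tg) averaged 4.71 in exposed and 4.88 in unexposed mice.

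Sox2 had the widest spread among exposed mice. Its values were 8.15, 7.96, 4.54, 6.90 and 7.81 in exposed mice 1 to 5, against 8.18, 8.18, 7.92, 8.22 and 8.14 in unexposed mice 1 to 5. Exposed mice 1 and 2 lay inside the unexposed range, mouse 5 just under it, and mice 3 and 4 well under it. The log2 change was -1.06 (SE 0.57, 95% interval -2.30 to 0.18, adjusted p = 0.288), and without exposed mouse 3 it was -0.42 (interval -0.90 to 0.056). SOX2 also occurs in immature Schwann cells. Of 5 Schwann cell markers measured, 0 were called (1 fell without exposed mouse 3), and their median change was -0.19. S100b, also a cartilage gene, averaged 9.16 in exposed and 10.3 in unexposed mice (log2 change -1.11, adjusted p = 0.118), and Sox10, the Schwann lineage factor, 5.35 in exposed and 5.28 in unexposed mice. Cdh19, Erbb3 and Foxd3 had changes of -0.25, -0.19 and 0.17 (adjusted p 0.592 to 0.828), and the part of these cells in the values of Sox2 was not tested.

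Trp63, the basal cell factor, was lower than every unexposed mouse in exposed mice 3 and 4 only. It had 7.43, 7.41, 5.58, 7.06 and 7.58 in exposed mice 1 to 5, against 7.26, 7.51, 7.46, 7.62 and 7.21 in unexposed mice 1 to 5. Exposed mice 1, 2 and 5 lay inside the unexposed range. The log2 change was -0.40 (95% interval -1.11 to 0.30, adjusted p = 0.506), and -0.044 without exposed mouse 3 (interval -0.33 to 0.25).

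Foxa1, like Sox2, was lowest in exposed mice 3 and 4. It had 7.50, 7.12, 4.42, 6.22 and 7.50 in exposed mice 1 to 5, against 7.62, 7.58, 7.31, 7.69 and 7.43 in unexposed mice 1 to 5. Exposed mice 1 and 5 were within the unexposed range and the other 3 below it. The log2 change was -0.97 (95% interval -2.06 to 0.11, adjusted p = 0.260), and -0.44 without exposed mouse 3. The interval of Foxa1 takes in the change of Foxa2, and the paralogs' difference is tested below.

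The remaining ETS factors, Elf3 and Ehf, overlapped between the groups. Elf3 had 8.54, 7.84, 6.08, 7.49 and 8.51 in exposed mice 1 to 5, against 7.81, 8.03, 7.72, 8.00 and 7.27 in unexposed mice 1 to 5, so that exposed mice 1 and 5 were above all unexposed mice and mouse 3 was below them. Its log2 change was -0.074 (95% interval -0.95 to 0.80, adjusted p = 0.942), and 0.33 without exposed mouse 3 (adjusted p = 0.448). Ehf had 8.98, 8.42, 5.77, 7.73 and 8.93 in exposed mice 1 to 5, against 8.89, 9.01, 8.62, 9.04 and 8.23 in unexposed mice 1 to 5, with exposed mice 3 and 4 under the unexposed range. Its log2 change was -0.79 (95% interval -1.92 to 0.34, adjusted p = 0.398), and -0.24 without exposed mouse 3.

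Grhl2 and Klf5 were below the unexposed range in 3 exposed mice each. Grhl2 had 8.08, 7.34, 5.30, 6.68 and 7.52 in exposed mice 1 to 5, against 7.51 to 8.04 in unexposed mice (median 7.86), and exposed mouse 1 was above all of them. Its log2 change was -0.84 (95% interval -1.75 to 0.065, adjusted p = 0.244), and -0.42 without exposed mouse 3. Klf5 had 10.4, 10.1, 8.72, 9.81 and 10.5 in exposed mice 1 to 5, against 10.2 to 10.6 in unexposed mice (median 10.4). Exposed mice 1 and 5 lay inside that range, the log2 change was -0.50 (95% interval -1.12 to 0.12, adjusted p = 0.316), and it was -0.21 without exposed mouse 3.

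**Figure D2:**
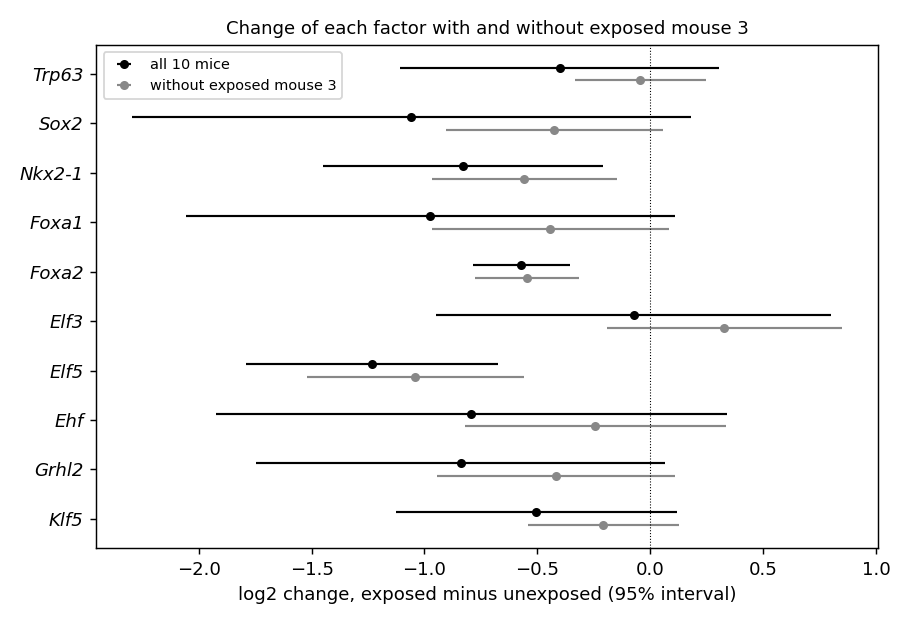
Log2 change of each factor, exposed minus unexposed (horizontal axis), with limma's 95% interval, for all 10 mice (black) and without exposed mouse 3 (grey). Elf5 stays near -1 and Foxa2 near -0.55 in both fits, whereas without that mouse the change of Sox2 is -0.42 in place of -1.06, that of Foxa1 is -0.44 in place of -0.97, and Elf3 moves above 0.

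The exposed mice kept nearly one order across the factors. Exposed mouse 3 was the lowest of all 10 mice for 10 of 10 factors, which was so for 12.5% of all genes, and exposed mouse 4 was the second lowest exposed mouse for all 10. The median deviation of the 10 factors from the unexposed mean was -0.0051 in exposed mouse 1, -0.38 in mouse 2, -1.96 in mouse 3, -1.04 in mouse 4 and -0.15 in mouse 5. Over all genes the same medians lay between -0.023 and 0.040. All 10 factors were below every unexposed mouse in exposed mouse 3, 9 in mouse 4, 6 in mouse 2, 4 in mouse 5 and 3 in mouse 1. For these counts, and for exposed mouse 4 as second lowest, no share over all genes is given. They describe the 10 factors only. The SD was larger in exposed than in unexposed mice for 9 of 10 factors, beside 60.6% of all genes. It ran up to 1.5 (Sox2) among exposed mice and up to 0.34 (Ehf) among unexposed mice.

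**Figure D3:**
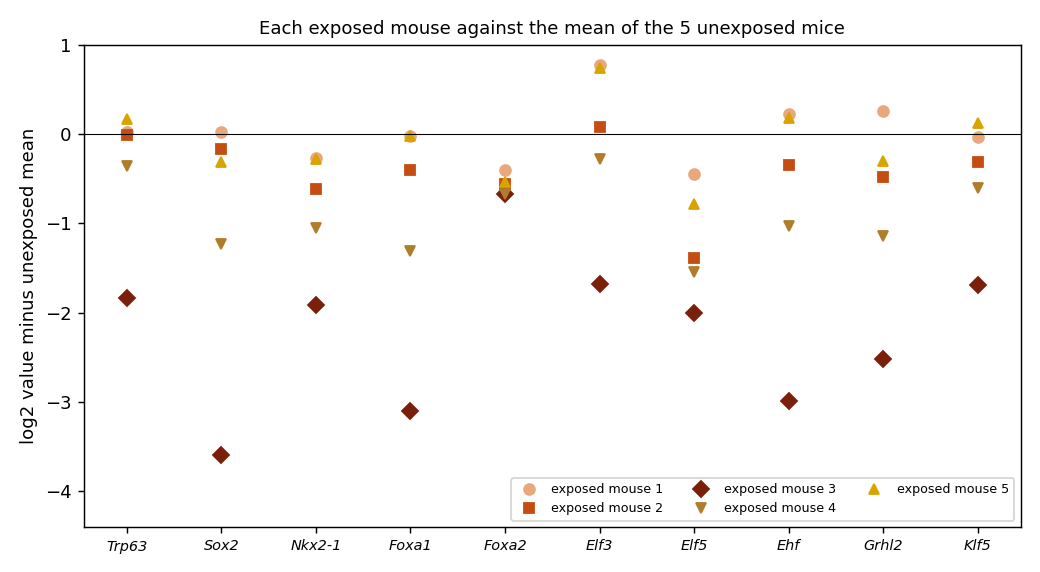
Log2 value of each exposed mouse minus the mean of the 5 unexposed mice (vertical axis) for the 10 factors; each symbol is 1 mouse. Exposed mouse 3 (diamonds) reaches -3.59 for Sox2, and for Foxa2 all 5 mice lie between -0.67 and -0.41.

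The 6 shared epithelial genes did not move as one in the exposed mice that were lowest for the factors. In exposed mouse 4, Epcam (7.97) and Cdh1 (8.91) were below every unexposed mouse (lowest 8.10 and 9.07), and Krt8 (10.2), Krt18 (9.71), Krt19 (8.97) and Cldn7 (8.63) were above every unexposed mouse. In exposed mouse 3, Epcam, Cdh1, Krt19 and Cldn7 were below every unexposed mouse, and Krt8 (9.70) and Krt18 (9.57) lay within the unexposed range. The mean of the 6 thus joins genes that differed in direction, and they did not split into adhesion genes against keratins. Cldn7 went with the keratins in exposed mouse 4, and Krt19 with Epcam and Cdh1 in exposed mouse 3. The mean of 15 junction genes associated with GRHL2 was 7.45 for mouse 4 and 6.50 for mouse 3, while unexposed mice had 7.39 to 7.70. When the shared epithelial mean of each mouse entered the limma fit as a covariate, 5 factors were called lower and 0 higher. They were Elf5 (-1.20), Nkx2-1 (-0.80), Foxa1 (-0.92), Foxa2 (-0.57) and Grhl2 (-0.79), with adjusted p of 0.0006 to 0.049, while Ehf (-0.73, adjusted p = 0.052), Klf5 (-0.47, adjusted p = 0.060), Sox2 (-0.99, adjusted p = 0.070), Trp63 (-0.36, adjusted p = 0.215) and Elf3 (-0.024, adjusted p = 0.954) did not pass. That fit called 1374 genes lower and 1507 higher.

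Taken within a mouse, the factors did not all shift alike. The log2 ratio of Elf3 over Ehf, both ETS factors, was -0.45, -0.57, 0.31, -0.24 and -0.43 in exposed mice 1 to 5, against -1.08, -0.98, -0.90, -1.04 and -0.96 in unexposed mice 1 to 5. Every exposed mouse was above every unexposed mouse. The difference of the group means was 0.72, larger than the spread in either group (SD 0.35 and 0.072, n = 5 each), with a two-sided exact permutation p of 0.00794, the smallest that relabelling 10 mice can give, and an adjusted p of 0.0317 over the 4 ratios compared. It was 0.57 without exposed mouse 3 and kept an adjusted p under the threshold with any mouse left out (exact permutation, adjusted p 0.0159 to 0.0317). The 4 ratios were chosen with earlier results of these data known, and the adjustment does not cover that choice.

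Trp63 over Nkx2-1, the basal over the secretory and lung factor, was 0.89, 1.21, 0.69, 1.31 and 1.05 in exposed mice 1 to 5, against 0.45, 0.66, 0.86, 0.41 and 0.63 in unexposed mice 1 to 5. Exposed mouse 3 overlapped unexposed mouse 3. The difference was 0.43 (exact permutation p = 0.0159, adjusted p = 0.0317, n = 5 each), and it lost its call without any one mouse except exposed mouse 3 or unexposed mouse 3 (differences 0.36 to 0.51, exact permutation adjusted p 0.0212 to 0.0794).

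Ehf over Elf5 was 3.44, 3.81, 1.78, 3.28 and 3.72 in exposed mice 1 to 5, against 2.66, 3.00, 2.84, 2.87 and 2.46 in unexposed mice 1 to 5. Exposed mouse 3 was below and the other exposed mice above all unexposed mice, and the difference of 0.44 did not pass (exact permutation, adjusted p = 0.381, n = 5 each). Without exposed mouse 3 it was 0.80 (exact permutation, adjusted p = 0.0159), a size that rests on Elf5 values below the array medians in exposed mice 2 and 4, with no known detection limit. Foxa1 over Foxa2 differed by -0.40 (exact permutation, adjusted p = 0.667, n = 5 each) and by 0.10 without exposed mouse 3, so a different change of the paralogs was not shown.

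**Figure D4:**
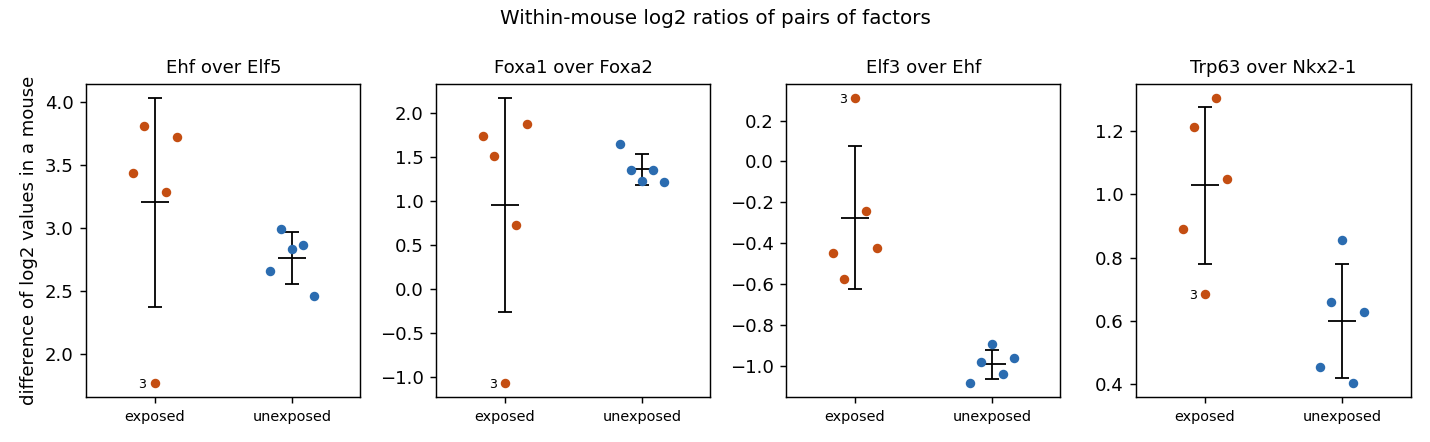
Differences of log2 values within a mouse (vertical axis, a separate scale for each pair) for 4 pairs of factors in exposed (orange) and unexposed (blue) mice, with the mean and 1 SD (n = 5 each). The groups separate for Elf3 over Ehf; the point marked 3 is exposed mouse 3.

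Over the 10 mice, the factors deviated together from their group means. Pearson's r of these deviations had a median of 0.95 over the 45 pairs of factors and was highest for Elf3 with Ehf (0.99). The points are arrays that share exposed mouse 3, without which the median r was 0.83 over 9 mice. Deviations were not scaled within groups, and most factors spread more in exposed mice (Sox2, SD 1.5 against 0.12 in unexposed mice). These r thus rest mainly on the exposed mice, and no r over other gene pairs is given beside them. The r of Foxa2 with the others was 0.45 to 0.61, and 0.39 to 0.65 without exposed mouse 3, while the other 9 had 0.75 to 0.99 among themselves, and 0.53 to 0.98 without it. The genes most like Elf5 by this measure over 10 mice were Hid1 (0.98), Sidt1 (0.97) and Abca3 (0.97), of which Hid1 changed by -1.01 (adjusted p = 0.032, lost in 6 of the fits that left out 1 mouse) and Abca3, a lipid transporter of surfactant-making cells, by -0.93 (adjusted p = 0.0033). Those most like Foxa2 were Neurod6 (0.95), Fam186b (0.94) and Olfr1241 (0.92), none of them called. Both sets have the highest r among all measured genes, gene models and non-coding names left out, so high values come with the choice. Exposed values of Foxa2 lay not far above the array medians, and the part of this in its lower r was not tested.

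Among 19 measured relatives from the same families, 1 rose and 1 fell, and the median change was -0.033. Spdef, the ETS factor of mucous cells, fell to 5.65 ± 0.15 in exposed mice, against 6.21 ± 0.18 in unexposed mice (log2 change -0.56, adjusted p = 0.0081, SD, n = 5 each). Elf4, an ETS factor of blood and immune cells, rose to 7.43 ± 0.21 in exposed mice, against 6.97 ± 0.14 in unexposed mice (0.45, adjusted p = 0.031), and lost its call in 8 of the 10 fits that left out 1 mouse. Within the families, Foxa3 changed by -0.37 (adjusted p = 0.277), and among ETS factors Elf1 by -0.28 (adjusted p = 0.194) and Elf2 by 0.11 (adjusted p = 0.502). The grainyhead factors Grhl1 and Grhl3, of which GRHL3 acts in skin barrier formation, changed by -0.015 (adjusted p = 0.982) and 0.64 (adjusted p = 0.114), and Grhl3 passed without exposed mouse 3 (adjusted p = 0.0029). For KLF factors the values were 0.14 for Klf4, -0.033 for Klf2, -0.30 for Klf3 and -0.13 for Klf6 (adjusted p 0.114 to 0.946). The SOX factors Sox3, Sox4, Sox9, Sox17 and Sox21 had changes of 0.25, 0.078, -0.35, 0.17 and -0.19 (adjusted p 0.338 to 0.733). Trp73, of the p53 family, changed by -0.34 (adjusted p = 0.408), and Nkx2-3 and Nkx2-5 by -0.036 and 0.25 (adjusted p = 0.887 and 0.389).

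Transcription factors of other airway cells were lower or not called. Of 20 measured factors of ciliated, secretory, gland, ionocyte, tuft and neuroendocrine cells, 4 fell and 0 rose (median -0.38). They were Spdef, Creb3l1 (-0.82, adjusted p = 0.0080), which drives secretory pathway genes, and the Notch targets Hes1 (-0.78, adjusted p = 0.045) and Hey1 (-0.71, adjusted p = 0.038), the last named after its values were seen. Hes1 lost its call in 8 and Hey1 in 7 of the 10 fits that left out 1 mouse. Among those not called, Mcidas was higher in every exposed mouse than in any unexposed mouse (0.69, adjusted p = 0.081). This separation was nearly a tie, with a lowest exposed value of 5.633 and a highest unexposed value of 5.631. Gmnc was lower in every exposed mouse (-0.965, adjusted p = 0.064), and both were named after their values were seen. Without exposed mouse 3 the list had 4 falls and 1 rise. Of 14 factors of stratified squamous epithelium, Sox15 rose (0.66, adjusted p = 0.039, lost in 7 of those 10 fits) and 0 fell, with a median of 0.12, and without exposed mouse 3 there were 3 rises. Of 5 repressors of epithelial genes (Zeb1, Snai1, Snai2, Twist1 and Twist2), 0 were called.

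Genes known as targets of these factors went in both directions. Of 16 surfactant and secretory genes tied to NKX2-1 or FOXA factors, 4 fell and 0 rose, with a median change of -1.87, and without exposed mouse 3 the median was -0.96 and 8 fell. Sftpa1, a surfactant collectin, fell to 5.75 ± 1.21 in exposed mice, against 10.7 ± 0.28 in unexposed mice (log2 change -4.94, adjusted p = 0.000106), and Sftpb, a surfactant protein, to 5.84 ± 0.53, against 8.57 ± 0.18 in unexposed mice (-2.73, adjusted p = 4.40e-05, SD, n = 5 each). Sftpd (-2.21, adjusted p = 0.0012) and Abca3 were the others, named after their values were seen. The list mean spanned 4.90 to 8.22 across exposed mice, lowest in mouse 3, and 8.61 to 8.85 across unexposed mice.

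Of 19 basal genes tied to p63, 6 rose and 0 fell, with a median of 0.34, although Trp63 itself did not pass. The basal keratin Krt14 rose to 11.6 ± 0.36 in exposed mice, against 7.23 ± 0.53 in unexposed mice (log2 change 4.31, adjusted p = 6.77e-06), and the desmosomal cadherin Dsg3 to 7.98 ± 0.64, against 4.01 ± 0.52 in unexposed mice (3.97, adjusted p = 4.40e-05, SD, n = 5 each). The integrin subunit Itga6 (0.96, adjusted p = 0.0048), named after its values were seen, also rose. In exposed mouse 3 the list mean was 6.76, within the 6.59 to 6.88 of unexposed mice, and the other exposed mice had 7.45 to 7.61. Of 15 junction genes tied to GRHL2, 0 were called (median -0.28), and without exposed mouse 3 the median was -0.018 and 3 rose.

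**Figure D5:**
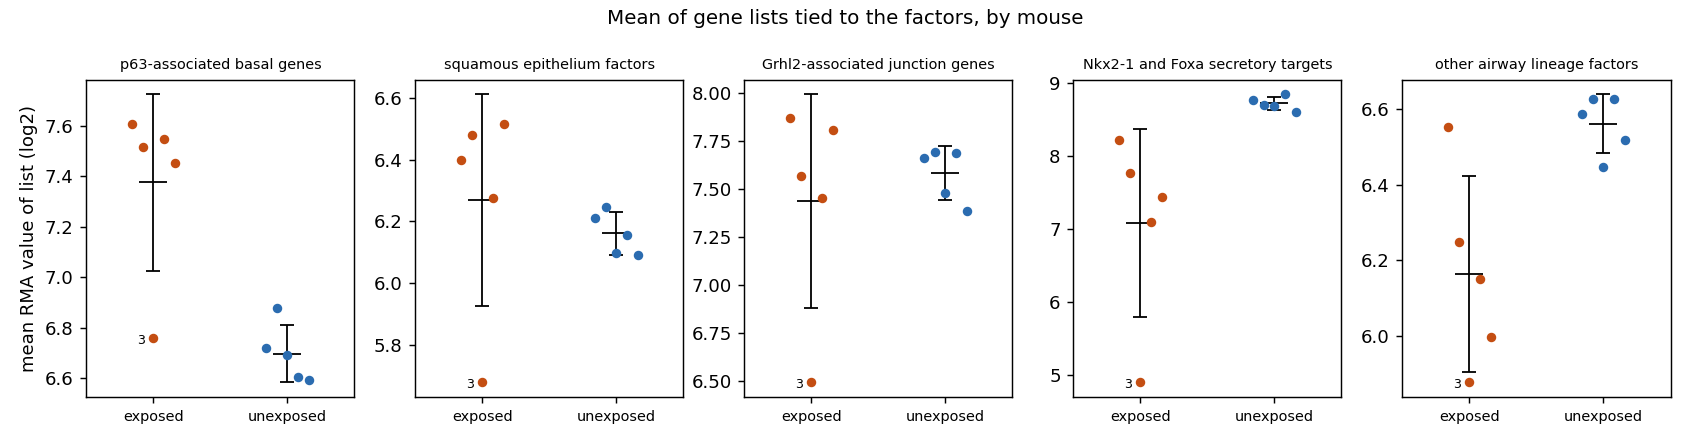
Mean RMA value (log2, vertical axis, a separate scale for each list) over 5 gene lists in each exposed (orange) and unexposed (blue) mouse, with the mean and 1 SD (n = 5 each). The secretory target means separate, with all exposed mice at or under 8.22 and all unexposed mice at or over 8.61; the point marked 3 is exposed mouse 3.

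Genes listed for other cells and tissues moved with the groups beside these factors. Of 9 ciliated cell genes 5 fell (median -2.47), led by Cdhr3 (-3.77, adjusted p = 0.00997) and Sntn (-3.64, adjusted p = 0.016). Of 8 genes listed for esophageal epithelium 6 rose (median 2.20), led by Sprr1a (6.53, adjusted p = 4.26e-08) and Krt6a (5.32, adjusted p = 4.40e-05). The other 2, Krt4 (1.25, adjusted p = 0.45) and Rhcg (0.12, adjusted p = 0.70), were not called. The list mean was at least 6.59 in each exposed mouse and at most 6.07 in each unexposed mouse. In exposed mouse 3, Krt4 (4.82) lay below every unexposed mouse, and Krt13 (5.74), Krt78 and Sprr3 lay inside the unexposed range. Sprr1a, Krt6a, Mal and Rhcg lay above that range in this mouse. Whether esophageal tissue was present was not tested. Of 5 genes of dividing cells all rose (median 2.44), Ccna2 by 2.75 (adjusted p = 2.13e-05) and Cdk1 by 2.53 (adjusted p = 2.57e-05). Of 8 fibroblast genes 3 rose (median 0.34), Col3a1 by 1.03 (adjusted p = 0.0029) and Col1a1 by 0.87 (adjusted p = 0.019, lost without exposed mouse 4). Of 9 cartilage genes 3 fell (median -1.01), among them Cnmd by 2.41 and Matn1 by 1.56 on the log2 scale (adjusted p = 0.0041 and 0.019), with 6 falls without exposed mouse 3, and of 6 smooth muscle genes 0 were called. Their part in the changes of the factors was not tested.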

How the data were processed

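RNA of 10 mice was measured on 1 Affymetrix array each. Per the labels' protocols, RNA was extracted with the PicoPure kit and labelled with the WT Plus kit. The authors deposited log2 values per probe set, for which the submitters' processing notes name RMA and Partek 6.6; base 2 is inferred from RMA and from values of 0.42 to 14.0. For RMA settings, probe set filters and the array's genome build, nothing is stated in the labels. Of 41345 probe sets, 23521 had 1 gene symbol, 1814 several and 16010 were unlisted and unnamed here. A gene's value was the mean over probe sets with its single symbol, giving 22180 genes.

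Each gene was fitted by limma 3.58.1 (lmFit and eBayes under R 4.3.3, two-sided, with no block), with p adjusted by Benjamini-Hochberg over all genes, after the code was tested on simulated data. Ratios within a mouse were compared by exact permutation. The 10 factors, the gene lists and the tests were chosen with earlier results of these data known, as were the covariate and the fit without exposed mice 1 and 3. All factors and family relatives were named, and from every other list the called genes with the largest changes, at most 2 in each direction, with exceptions said in the text. For each factor called, the 3 genes most like it were named. Alternatives changed normalization, filters, probe sets, variance model, weights, threshold, block and mice. Scanner files were not used here, so no detection limit is known. Tables were made with Python 3.11.15 and pandas 2.3.3, figures with matplotlib 3.10.9.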

Additional observations from a re-analysis of the deposited data

Results flagged for a closer look

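Among 28 groups of 5 mice (10 factors and 4 ratios), 3 held a mouse whose gap to the next exceeded Dixon's 95% value, and chance alone gives about 1 in 20. Trp63 was 5.58 in exposed mouse 3, with 7.06 to 7.58 in the other exposed mice. Sox2 was 7.92 in unexposed mouse 3, with 8.14 to 8.22 in the other unexposed mice, a small gap in a narrow group. The log2 ratio of Ehf over Elf5 was 1.78 in exposed mouse 3, with 3.28 to 3.81 in the other exposed mice. The cause was not tested.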

How the results depend on the processing

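Of 219 alternative values for single factors, 211 kept their direction and side of the threshold. Many of these could not have differed in direction. Each factor had 1 probe set, so the probe set alternatives repeated its log2 change. Those that changed only the filter, variance model, block or threshold kept that change too and could move only the call. Elf3 ranged from -0.29 to 0.33 with 1 mouse left out, turned above 0 without exposed mouse 3, and was also above 0 without exposed mice 1 and 3 (0.18) and with array weights (0.068). Members called lower numbered 2, with 2 to 3 when 1 mouse was left out; they were 1 among genes at or above the median mean only, where Elf5 was not tested, 1 against a 1.2-fold change and 5 with the pan-epithelial mean as covariate. Members called higher were 0 in every fit run. Genes called, 2400 in all, were 849 against a 1.2-fold change, 1054 at an adjusted p under 0.01 and 1669 to 2839 with 1 mouse left out. Ehf over Elf5 ranged from 0.29 to 0.80 with 1 mouse left out and was 0.84 without exposed mice 1 and 3, Foxa1 over Foxa2 from -0.63 to 0.10 and 0.0098, Trp63 over Nkx2-1 from 0.36 to 0.51, and Elf3 over Ehf from 0.57 to 0.79. With the mouse number as a replicate block, 1880 genes were called, and 2 members lower and 0 higher. Same-numbered mice deviated together with r of -0.049 to 0.12, so the numbers were not taken as pairs. Where not stated, the cause was not tested.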

Other observations

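Elf5 and Ehf are neighbours among protein-coding genes of the RefSeq table, and the gene on the other side of Elf5 is Cat, which encodes catalase, the enzyme that breaks down hydrogen peroxide. Cat averaged 8.51 ± 0.12 in exposed and 9.02 ± 0.039 in unexposed mice (SD, n = 5 each), a log2 change of -0.50 (limma adjusted p = 0.0033), with no overlap between the groups. It kept its call with each mouse left out (adjusted p 0.0045 to 0.011). Apip, on the other side of Ehf, changed by -0.17 (adjusted p = 0.398). Of the other measured neighbours of the 10 factors, none was called. These neighbours were looked at after the factors' values were seen.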
